A study of Mus musculus with 32 samples.

Results

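The HoxD cluster and the gene-poor landscapes on either side of it were followed through 32 ATAC-seq libraries of mouse limb bud cells. The stretch ran on chromosome 2 of mm10 from 800000 bp beyond Hoxd13 on the Evx2 side to 800000 bp beyond Hoxd1 on the Mtx2 side (chr2:73868310-75565142, 1696833 bp). Every summit of open chromatin listed there was taken, which gave 1663 of the 1234971 summits of the 32 lists, or 0.135%. The Evx2-side flank held 598 of them, the cluster from Evx2 to Hoxd1 held 384 and the Mtx2-side flank held 681. The genes described are Hoxd1, Hoxd3, Hoxd4, Hoxd8, Hoxd9, Hoxd10, Hoxd11, Hoxd12, Hoxd13 and Evx2, 10 in all.

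The limb buds fell into 12 groups. The wild-type groups were hindlimb at E9.5 (1 library) and limb at E10.25 (2 libraries). The E10.5 hindlimb of Shh-EGFP embryos, a knock-in reporter line, was split into Shh-EGFP+ posterior cells (1 library) and anterior cells (1 library). The HL EYFP and FL EYFP groups (3 libraries each) were EYFP+ cells of Etv2-EYFP hindlimbs and forelimbs at E10.5 that were sorted as negative for CD31, TIE2 and CD45. Hindlimbs with a conditional knockout of Etv2 (CKO, HoxB6-Cre Tg/+;Etv2 fl/-) were assayed at E10.25 (5 libraries) and E10.5 (2 libraries). The study's text places the cells of the WT and CKO samples at E10.25 in the posterior hindlimb, which the labels of those samples do not state. The Etv2OE embryos carried HoxB6-Cre, iHA-Etv2 and ROSA26-STOP-rtTA-IRES-EGFP and received doxycycline to switch on HA-ETV2. Their limb buds were divided into anterior and posterior parts (3 libraries each, embryos 7, 9 and 10), as were those of control littermates that lacked a transgene (4 libraries each, embryos 1 to 4). The labels put these embryos at E10.5, and the study's methods describe later harvests. HoxB6-Cre acts in the whole hindlimb but in only part of the forelimb, HA-ETV2 did not appear in every cell, and the wild-type and CKO samples were pools of embryos. The 2 wild-type libraries at E10.25 carry 1 date in their labels and the 5 CKO libraries carry 5 other dates, so date and genotype cannot be told apart there.

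Hoxd genes encode homeodomain transcription factors that pattern the limb, and the genes at the Hoxd13 end act in its posterior and distal part. The gene desert on the Evx2 side is known for enhancers that drive Hoxd13 and its neighbours in the digits, and the landscape on the Mtx2 side for enhancers that act early and in the proximal limb. ETV2 is an ETS family factor best known for starting the blood and endothelial lineages, and HOXD13 binds the limb enhancer of Shh.

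ATAC-seq reads mark DNA that a transposase can reach, and each list gives the summit of each called peak with its -log10 q-value. The lists were 13763 to 54676 summits long and held 15 to 102 HoxD summits each. They carry no read counts, so depth is unknown and a missing summit does not show closed chromatin. Each summit was therefore read by its relative rank, which is 1 at the top of a library's list and near 0 at its end, with 0 for a site that was not listed. Summits were gathered into 200-bp intervals, each named here by the distance of its centre from the start of Hoxd13 (negative on the Evx2 side). Of 133155 intervals listed in at least 2 libraries, 211 were HoxD intervals (71 on the Evx2 side, 58 in the cluster and 82 on the Mtx2 side), and a further 76 were listed in 1 library. The limb mesenchyme gene Twist1 had a summit within 1000 bp of its start in 32 of 32 libraries and Prrx1 in 30. The endothelial genes Pecam1 and Cdh5 and the blood gene Ptprc had none in any library, while Kdr, which is also endothelial, had one in all 32, Tek in 4, Emcn in 1 and the blood gene Gata1 in 1. The ectoderm gene Epcam was listed in 17 libraries, Trp63 in 4 and Krt8 in 2. Epcam was listed in 3 of 3 FL EYFP and 0 of 3 HL EYFP libraries, in both WT E10.25 libraries (mean relative rank 0.533) and 4 of 5 CKO E10.25 libraries (0.190), in the Posterior E10.5 library (0.473) and not in the Anterior E10.5 library, in 4 of 4 Control posterior and 2 of 4 Control anterior libraries, in 1 of 3 Etv2OE anterior libraries, and in no Etv2OE posterior, CKO E10.5 or E9.5 library. Of the muscle progenitor genes, Pax3 was listed in 13 libraries, Lbx1 in 9 and Myf5 in 8. The part of these cells in the results was not tested. The forelimb gene Tbx5 was listed in 2 libraries, of which 1 was a forelimb library, and the hindlimb gene Tbx4 in 27, of which 1 was a forelimb library. The posterior gene Hand2 was listed in 4 of 4 Control posterior (mean relative rank 0.502) and 3 of 4 Control anterior libraries (0.158). Shh was listed in 1 and 0 of them. The anterior gene Alx4 was listed in 3 (0.190) and 2 (0.0320), and Pax9 in 4 (0.766) and 4 (0.816). In Etv2OE posterior and anterior limb Hand2 was at 0.344 and 0.214, Alx4 at 0.0848 and 0, and Pax9 at 0.450 and 0.771.

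The 6 sequences below are shown because the comparisons below turn on them. They are the reference plus strand of mm10, 5′ to 3′, and capitals mark the words searched for. The +5.7 kb interval (chr2:74673890-74674089) lies between Hoxd13 and Hoxd12, and +682.8 kb (chr2:75351019-75351218) lies between genes on the Mtx2 side. Both were listed higher in posterior than in anterior limb and hold none of the words. The +302.5 kb interval (chr2:74970745-74970944), between genes on the same side, is shown for its posterior listing and its HOX13 word. The +771.5 kb interval (chr2:75439698-75439897, in an intron of Gm13658) and +844.7 kb (chr2:75512937-75513136, between genes) are among the highest ranked of the Mtx2 side and hold an ETS word. The -367.8 kb interval (chr2:74300389-74300588, in an exon of the long non-coding RNA 4930441J16Rik) was listed in every forelimb EYFP library and in no hindlimb EYFP library, and holds an ETS, a LIM homeodomain and a CTCF core word.
-367.8 kb: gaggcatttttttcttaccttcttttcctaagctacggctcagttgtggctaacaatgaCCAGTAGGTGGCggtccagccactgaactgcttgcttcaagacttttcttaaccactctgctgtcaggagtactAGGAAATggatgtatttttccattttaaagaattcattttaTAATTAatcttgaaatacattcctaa
+5.7 kb: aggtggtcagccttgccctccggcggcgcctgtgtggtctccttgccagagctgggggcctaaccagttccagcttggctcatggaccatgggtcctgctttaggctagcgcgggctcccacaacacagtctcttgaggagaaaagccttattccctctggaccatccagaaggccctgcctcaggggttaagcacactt
+302.5 kb: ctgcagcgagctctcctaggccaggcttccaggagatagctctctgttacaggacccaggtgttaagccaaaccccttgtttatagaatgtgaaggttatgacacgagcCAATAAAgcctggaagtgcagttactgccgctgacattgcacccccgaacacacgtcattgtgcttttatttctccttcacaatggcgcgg
+682.8 kb: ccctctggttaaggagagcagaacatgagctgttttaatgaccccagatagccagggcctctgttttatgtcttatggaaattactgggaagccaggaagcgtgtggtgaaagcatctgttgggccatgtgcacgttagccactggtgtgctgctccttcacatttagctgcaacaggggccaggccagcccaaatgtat
+771.5 kb: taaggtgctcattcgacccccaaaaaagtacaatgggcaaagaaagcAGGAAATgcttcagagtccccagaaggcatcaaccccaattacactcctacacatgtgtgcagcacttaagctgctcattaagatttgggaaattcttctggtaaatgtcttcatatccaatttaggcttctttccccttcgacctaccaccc
+844.7 kb: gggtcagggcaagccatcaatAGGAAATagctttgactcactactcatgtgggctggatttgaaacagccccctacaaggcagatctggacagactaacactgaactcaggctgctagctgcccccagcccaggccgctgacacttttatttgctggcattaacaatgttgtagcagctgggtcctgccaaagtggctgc

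The words were counted on both strands of all 211 HoxD intervals and of all 133155 intervals, and no word contains another. An ETS word (AGGAAGT or AGGAAAT) was found in 19.5% of Mtx2-side intervals (16 of 82), in 8.45% of Evx2-side intervals, in 8.62% of cluster intervals and in 12% of all intervals. The HOX13 word CAATAAA was found in 9.00% of HoxD intervals (19 of 211) and in 5.04% of all intervals, in 6 of 71, 6 of 58 and 7 of 82 intervals of the 3 sections. GATA words (AGATAA or TGATAA) were most frequent on the Evx2 side, at 21.1% against 12.4% of all intervals. The LIM homeodomain word TAATTA was found in 18.3% of Evx2-side intervals, 1.72% of cluster intervals, 7.32% of Mtx2-side intervals and 7.78% of all intervals. The CTCF core was found in 2.84% of HoxD intervals and 4.85% of all intervals. These shares are descriptions, and a match is not a bound site.

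The 3 sections differed in make-up. Cluster intervals were GC-rich, with a median of 60% GC, and 50% of them lay within 1000 bp of a gene start. The flanks had medians of 45% and 46.5% GC, and 5.63% and 3.66% of their intervals lay near a start, against a median of 50.5% GC and 21.6% near a start over all intervals. The cluster took 6.61% of the length and 23.1% of the summits. Broadly listed sites made up a smaller share than over the genome. Of the 211 HoxD intervals, 2 were listed in all 32 libraries (0.948%, against 2.68% of all intervals), and 39 in at least 16 (18.5% against 23.6%). These 39 were 13 on the Evx2 side, 6 in the cluster and 20 on the Mtx2 side.

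**Figure D1:**
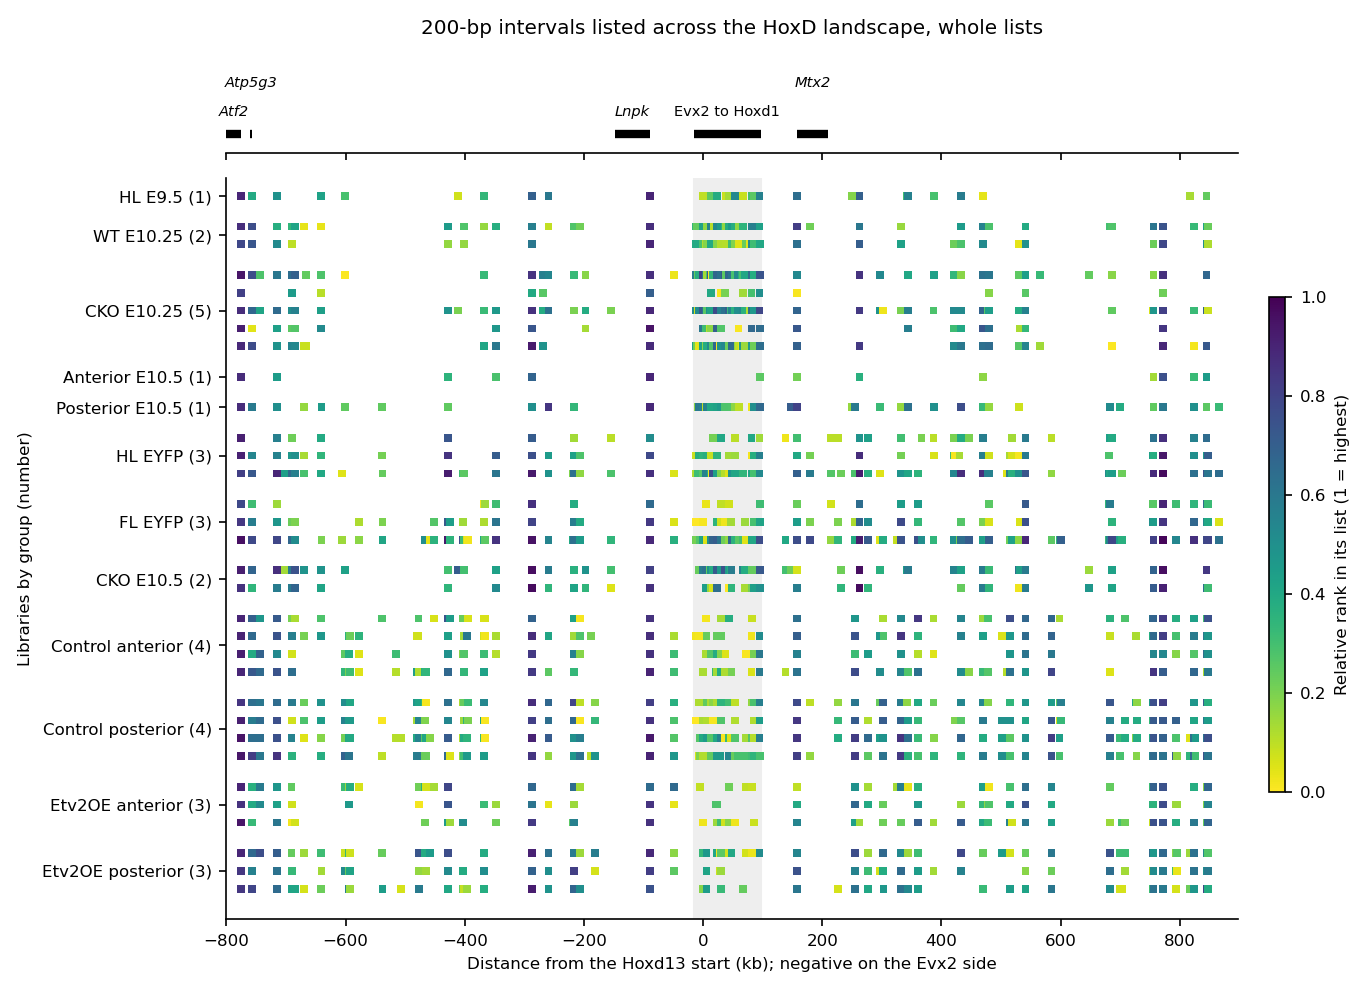
HoxD intervals listed in each of the 32 libraries (rows, by group) against distance from the Hoxd13 start in kb; the colour of each mark is the relative rank in the whole list. Both flanks hold columns of marks that run through most groups, while the marks in the grey cluster stretch come and go between libraries, from 1 summit in the Anterior E10.5 library to 29 in a CKO E10.25 library.

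On the Evx2 side the highest mean relative ranks belonged to gene starts and to remote sites. The -775.5 kb interval at Atf2, a transcription factor gene, and -89.3 kb at Lnpk, which encodes an endoplasmic reticulum protein, were the 2 listed in all 32 libraries. Their relative ranks ran from 0.781 to 0.957 and from 0.519 to 0.945. The -756.9 kb interval at Atp5g3, a mitochondrial ATP synthase gene, was listed in 29. The other 2 of the top 5 lay between genes. The -287.2 kb interval was listed in 30 libraries, all but WT E10.25 replicate 1 and CKO E10.5 replicate 2, with a highest relative rank of 0.961. Both of those libraries listed the adjoining -287.4 kb interval, at ranks 18689 and 811, so a summit lay at this site in them too. The -715.4 kb interval was listed in 29.

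On the Mtx2 side 4 of the top 5 lay far from protein-coding gene starts, 2 of them in an intron of Gm13658. The neighbouring +771.7 kb and +771.5 kb intervals can share a summit, since a library lists an interval when a summit lies within 200 bp of its centre. They were listed in 30 and 24 libraries, and +771.7 kb reached a relative rank of 0.984 in FL EYFP replicate 3. The +844.7 kb interval was listed in 30, +755.7 kb in 28, and +157.5 kb at the start of Mtx2, a mitochondrial outer membrane gene, in 24. The single E9.5 library listed 10 of the 13 widely listed Evx2-side intervals and 4 of the 6 in the cluster, but 5 of the 20 on the Mtx2 side. In that library +755.7, +771.5, +771.7 and +824.0 kb were all absent, and +844.7 kb stood at 0.240. Only CKO E10.25 replicate 2, whose list of 15626 summits is among the shortest, listed as few on the Mtx2 side (5 of 20), and it listed 5 of 13 on the Evx2 side. CKO E10.25 replicate 4 listed 6 of 20 on the Mtx2 side and 7 of 13 on the Evx2 side. The widely listed intervals were drawn from these same 32 libraries, most of them E10.5. With 1 library at E9.5, the difference seen there has no replicate check.

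In the cluster the highest mean relative ranks were at +94.6 kb by the Hoxd1 start (25 libraries), +23.5 kb by the Hoxd10 start (22), +5.7 kb (16), +13.7 kb in a Hoxd11 intron (18) and +30.5 kb in a Hoxd9 exon (19). The +13.7 kb interval also lies within 1000 bp of the Hoxd11 start. No cluster interval was listed in 28 or more libraries, against 8.35% of all intervals.

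**Figure D2:**
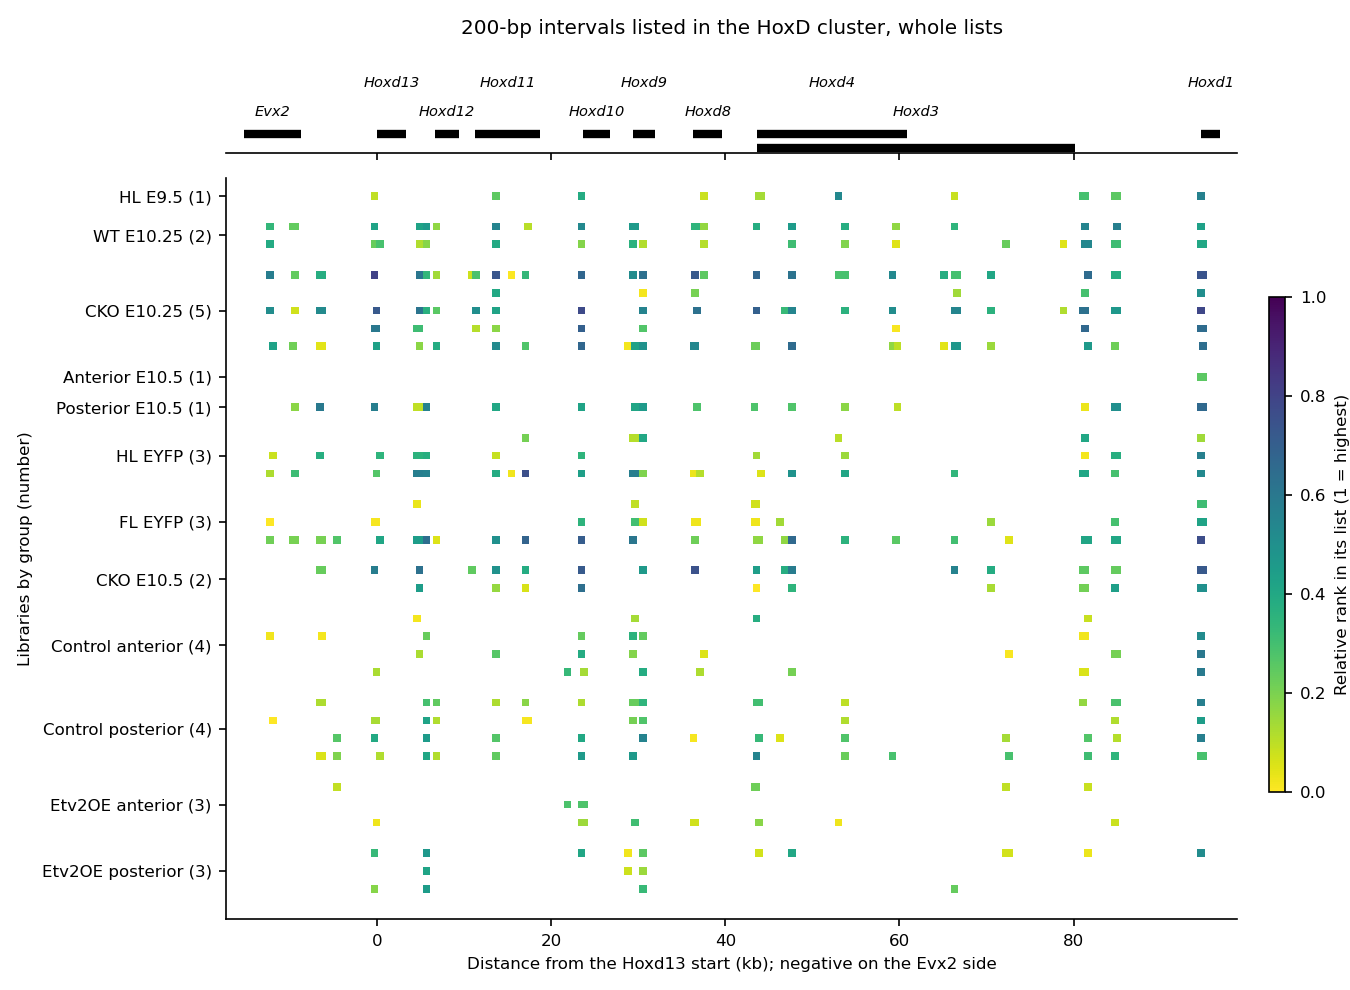
Cluster intervals listed in each library (rows, by group) against distance from the Hoxd13 start in kb, with the gene bodies as bars above; colour is the relative rank in the whole list. The highest numbers of cluster summits are in CKO E10.25 replicates 1, 3 and 5 (29, 25 and 23), FL EYFP replicate 3 (23), the WT E10.25 libraries (22 and 18) and HL EYFP replicate 3 (20), and the anterior and Etv2OE libraries hold 1 to 10 summits each.

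The start of each gene was read through its best-ranked summit within 1000 bp. Hoxd1 was listed in 26 of 32 libraries with a mean relative rank of 0.429, the highest of the 10 genes. It was followed by Hoxd10 (23 libraries, 0.316), Hoxd13 (20, 0.215), Hoxd11 (19, 0.206), Hoxd9 (19, 0.183), Hoxd3 (21, 0.181), Hoxd4 (17, 0.135) and Hoxd8 (16, 0.134). Hoxd12 (9, 0.0576) and Evx2 (7, 0.0458), the homeobox gene next to Hoxd13, were listed least. Neighbours in this order overlapped widely across libraries. The gene starts outside the cluster were steadier, with Atf2, Lnpk and Mtx2 listed in all 32 libraries and Atp5g3 in 30. The HoxA genes Hoxa9, Hoxa10 and Hoxa13 were each listed in 20, Hoxa11 in 12 and Evx1 in 7. Hoxd3 and Hoxd8 have 3 annotated starts each and Hoxd4 and Evx2 have 2, so the values of those genes cover more than 1 window.

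**Figure D3:**
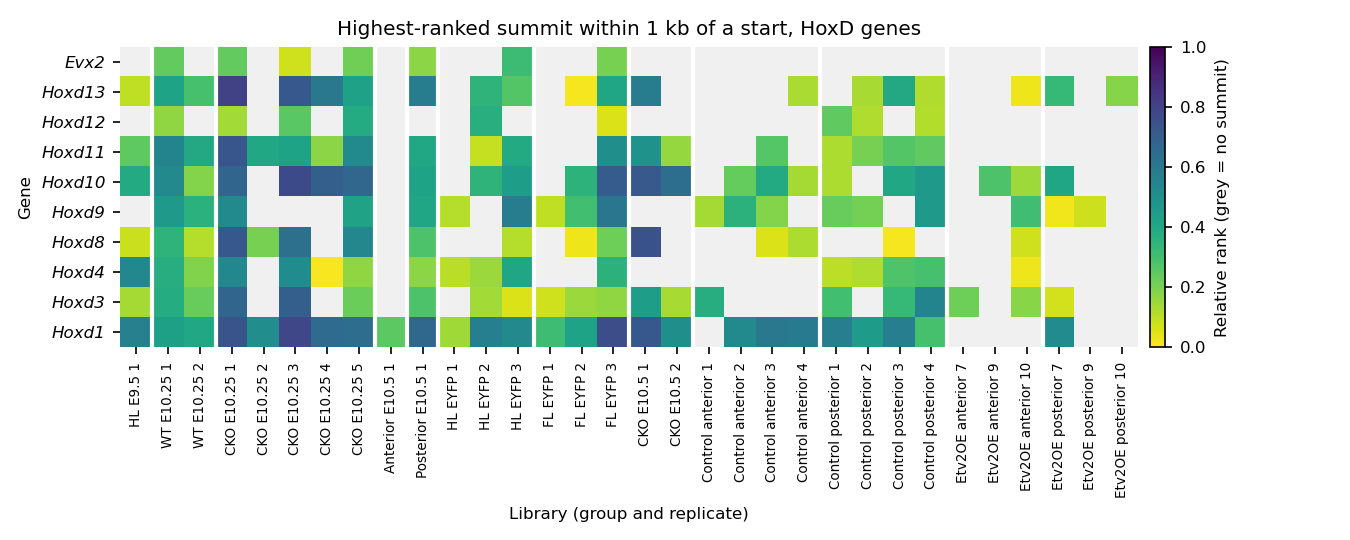
Relative rank of the best summit within 1 kb of a start for the 10 genes (rows) in the 32 libraries (columns, by group); grey means that no summit was listed. Hoxd1 is coloured in 26 columns and Evx2 in 7, and the 2 wild-type E10.25 libraries are coloured for 8 and 10 genes.

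By group, the number of the 10 genes with a listed start was 7 at E9.5, 8 and 10 in the 2 WT E10.25 libraries, and 3 to 10 in the 5 CKO E10.25 libraries. It was 9 in the Posterior E10.5 library and 1 in the Anterior E10.5 library, where Hoxd1 was the gene listed. Those 2 lists held 45346 and 13763 summits. In the controls it was 6 to 8 in posterior limb and 2 to 5 in anterior limb, so the groups did not overlap. The HoxA starts named above numbered 3 in every Control posterior library and 2 to 4 in Control anterior, which overlapped. The same count was not taken over all gene starts. In Etv2OE embryos the number of HoxD genes was 1 to 5 in posterior and 1 to 6 in anterior limb, which overlapped. The EYFP+ hindlimb gave 3 to 9, the EYFP+ forelimb 3 to 10 and CKO E10.5 gave 4 and 6. These counts come from whole lists, and list length differed between the groups: 51265 to 54676 summits in Control posterior, 40945 to 45762 in Control anterior, 38148 to 47051 in Etv2OE posterior and 32666 to 37993 in Etv2OE anterior. The part of list length in these counts was not tested beyond the equal-length lists below. In equal-length lists 4 of the 10 genes could be tested between the control groups. Their median posterior minus anterior difference was -0.0149 and none passed the threshold, against 1 of all 13177 starts.

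Whole lists gave 13, 11, 15 and 16 cluster summits in Control posterior and 4, 9, 9 and 8 in Control anterior. Etv2OE posterior gave 10, 3 and 4, and Etv2OE anterior 4, 2 and 7. The posterior controls thus stood above the other 3 groups without overlap. When every list of this experiment was cut to its 30000 highest-ranked summits, Control posterior kept 1, 2, 3 and 3 cluster summits, Control anterior 1, 2, 2 and 2, Etv2OE posterior 4, 1 and 3, and Etv2OE anterior 1, 2 and 1. The groups then overlapped.

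**Figure D4:**
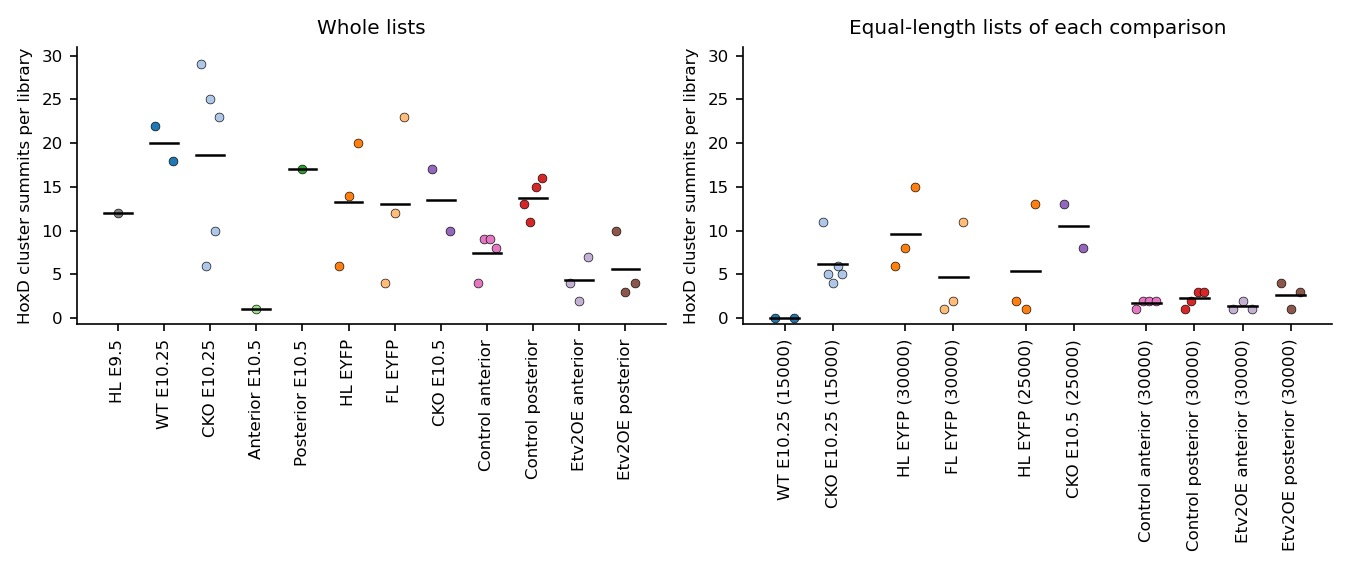
Number of summits in the HoxD cluster per library, in whole lists (left) and in equal-length lists of each comparison (right, list length in parentheses); points are libraries and bars are group means. Control posterior (11 to 16) stands above Control anterior (4 to 9) on the left, and on the right the 4 groups of that experiment all lie between 1 and 4.

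Differences between groups were tested on rank scores in lists of equal length, where 1 is the top of the list and 0 is not listed, with limma over all intervals listed in at least 2 libraries of the experiment. The first question was how posterior limb differed from anterior limb. In controls, 1 of 70 HoxD intervals was higher in posterior limb and none was lower, against 0.743% higher and 0.629% lower of the 59754 intervals tested. It was +682.8 kb. Its relative ranks in the whole lists were 0.732, 0.566, 0.718 and 0.569 in Control posterior and 0.362, 0.0840, 0 and 0.0509 in Control anterior. The groups did not overlap, and the posterior part was higher in 4 of 4 embryos. The mean score in equal-length lists was 0.375 ± 0.156 (SD, n = 4) against 0.0323 ± 0.0645 (n = 4), a difference of 0.343 (SE 0.0735, limma adjusted p = 0.0451). With the embryo as a replicate block the adjusted p was 0.0757, and without 1 of the 14 libraries in turn it lay between 0.0298 and 0.129, above the threshold of 0.05 for 10 of the 14: each Control anterior and Etv2OE anterior library, Control posterior replicates 1 and 3, and Etv2OE posterior replicate 9. The nearest protein-coding start, that of Hnrnpa3, lies 308143 bp away.

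In Etv2OE embryos, 2 of 70 HoxD intervals were higher in posterior limb and none was lower, against 0.564% higher and 0.527% lower of all intervals. The +682.8 kb interval again was one. It stood at 0.744, 0.644 and 0.523 in Etv2OE posterior and 0.242, 0 and 0.151 in Etv2OE anterior, higher in the posterior part of 3 of 3 embryos. Its mean score was 0.510 ± 0.112 (SD, n = 3) against 0.0204 ± 0.0354 (n = 3), a difference of 0.490 (SE 0.0849, limma adjusted p = 0.0172). With the replicate block the adjusted p was 0.0596, and without Etv2OE posterior replicate 7 it was 0.0546. The same interval was listed in the Posterior E10.5 library at 0.521 and not in the Anterior E10.5 library. Its posterior rank of 21707 lies beyond the end of the anterior list, so that pair of libraries cannot show a difference. It was listed in none of the 5 CKO E10.25 and neither of the CKO E10.5 libraries, in 1 of 2 WT E10.25 libraries, in 2 of 3 HL EYFP and in 2 of 3 FL EYFP libraries. In whole lists its difference between HL EYFP and CKO E10.5 was 0.280 (limma adjusted p = 0.507), which did not pass.

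The other interval was +5.7 kb, 1024 bp from the start of Hoxd12. It stood at 0.467, 0.417 and 0.451 in Etv2OE posterior and was not listed in Etv2OE anterior. Its mean score was 0.238 ± 0.0662 (SD, n = 3) against 0, a difference of 0.238 (SE 0.0351, limma adjusted p = 0.0069), and with the replicate block the adjusted p was 0.100. Control posterior stood at 0.297, 0.419, 0.456 and 0.409 and Control anterior at 0, 0.232, 0 and 0, again higher in the posterior part of 4 of 4 embryos. The Posterior E10.5 library listed it at 0.559 and the Anterior E10.5 library did not. Its posterior rank of 19991 lies beyond the end of the anterior list, so that pair cannot show a difference here either.

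At +5.7 kb the scale decided a further call. Etv2OE posterior scored above Control posterior in equal-length lists (0.238 against 0.00407, difference 0.234, SE 0.0328, limma adjusted p = 0.0263), the 1 HoxD interval higher of 70 where 0.0418% of all intervals were higher and 0.0218% lower. In whole lists, however, the relative ranks of both groups overlapped and the difference was 0.0496 (limma adjusted p = 0.815). Control posterior lists are the longest of the experiment, so the same relative rank falls further down them. The call was also lost when any 1 of the 8 control libraries or Etv2OE anterior replicate 9 was left out. The limma adjusted p then lay above 0.05 (0.0525 to 0.0747).

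**Figure D5:**
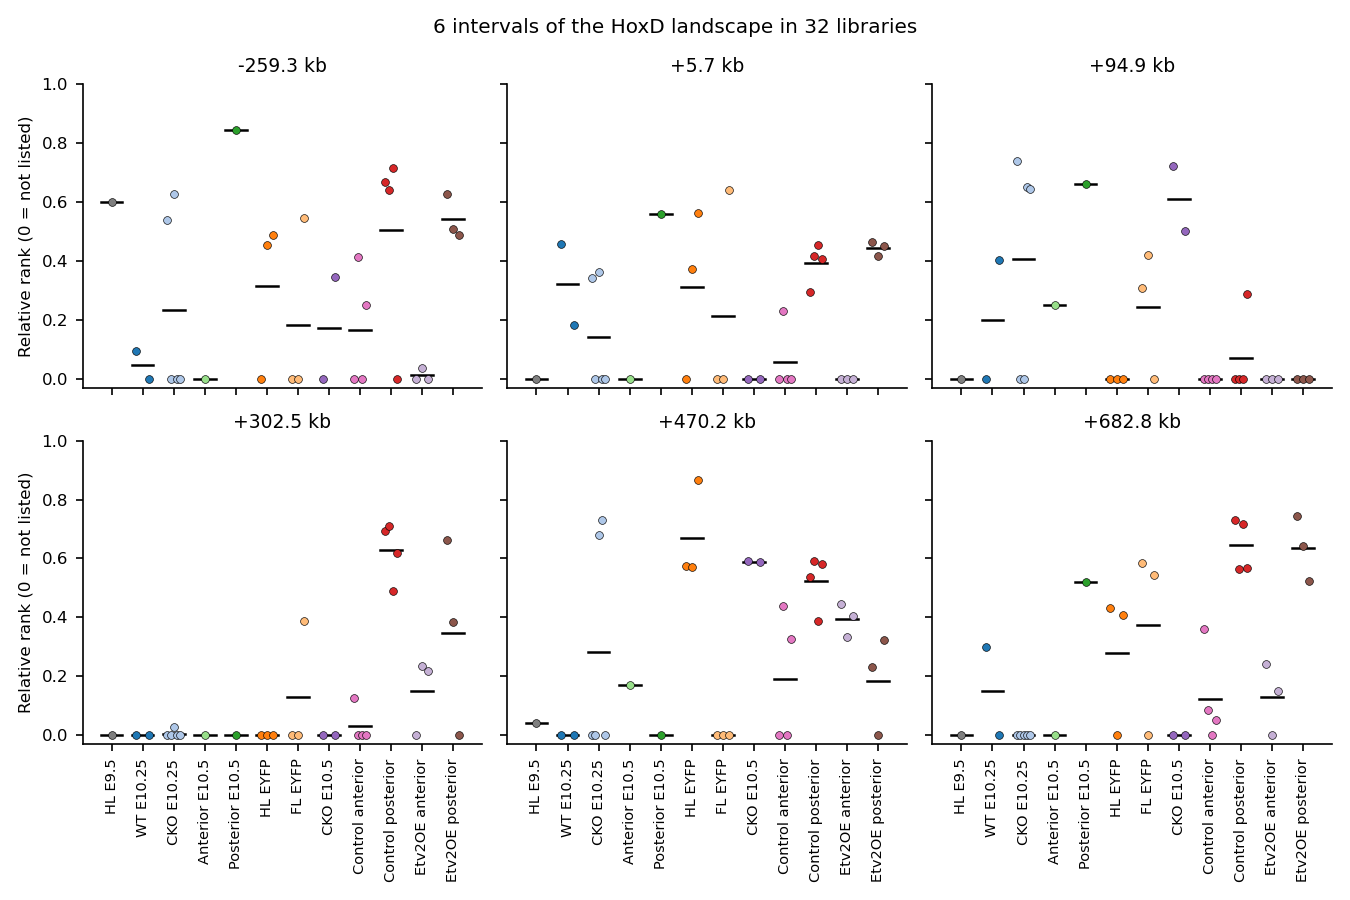
Relative rank in whole lists of 6 HoxD intervals in the 12 groups; points are libraries, bars are group means and 0 means not listed. At +682.8 kb all 7 posterior libraries of the controls and Etv2OE embryos lie above 0.5 and all 7 anterior libraries below 0.4, and at +470.2 kb the 3 HL EYFP libraries lie above 0.5 with the FL EYFP libraries at 0, of which 2 list the adjoining +470.0 kb interval.

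Whole lists gave 4 of 140 HoxD intervals higher in Control posterior than in Control anterior and none lower, against 2.2% and 0.498% of all intervals. They were +682.8 kb (difference 0.522, limma adjusted p = 0.0069), +5.7 kb (0.337, 0.0061), +302.5 kb (0.597, 0.0171) and +53.8 kb in an exon of Hoxd4 (0.181, 0.0279). The last of these lies 84 bp from a Hoxd4 start. The +302.5 kb site was at 0.694, 0.711, 0.490 and 0.620 in Control posterior and at 0.127, 0, 0 and 0 in Control anterior. Etv2OE posterior stood at 0.662, 0.383 and 0, and Etv2OE anterior at 0, 0.234 and 0.220. The adjoining +302.8 kb interval was listed in Etv2OE posterior replicate 10 (0.472), Control anterior replicate 2 (0.281) and Etv2OE anterior replicate 9 (0.234, a shared summit). In equal-length lists the control difference at +302.5 kb was 0.339 with a limma adjusted p of 0.201. Among all other libraries it was listed in FL EYFP replicate 3 (0.388) and CKO E10.25 replicate 3 (0.0273).

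The +53.8 kb interval was listed in all 4 Control posterior libraries, at 0.0986 to 0.277, and in no Control anterior or Etv2OE posterior library. It was the 1 of 153 HoxD intervals with the first pattern, which 1.38% of all intervals showed, and none had the opposite one (0.333%). Listed in all 3 Etv2OE posterior and no Etv2OE anterior libraries were 2 of 123, +5.7 and +30.5 kb, against 1.9%, and none the reverse (0.868%). Between Control anterior and Etv2OE anterior, 0 of 133 were listed throughout one group and never in the other, against 0.653% for the controls and 0.198% for Etv2OE. Listed in all 4 Control posterior and no Etv2OE posterior libraries were 3 of 142, -479.8, +598.3 and +53.8 kb, against 1.01%, and none showed the opposite pattern (0.154%). All Control posterior lists are longer than all Etv2OE posterior lists, and the part of that in these counts was not tested.

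The Posterior E10.5 and Anterior E10.5 libraries shared 12 listed HoxD intervals. A further 45 were listed only in the posterior library and 5 only in the anterior one. The posterior list is the longer, at 45346 against 13763 summits, and these counts were not taken over all intervals. Of the 45, 4 ranked within the first 13763 summits, the length of the anterior list. They were -259.3 kb (rank 6964), +157.7 kb by Mtx2 (8994), +433.5 kb (10804) and +148.2 kb (13165), named here after their values were seen. At the Mtx2 start both libraries had a summit, since the anterior one listed the adjoining +157.5 kb interval (0.213). Likewise, the anterior-only intervals -715.4 and +470.2 kb adjoin -715.7 and +470.0 kb, which the posterior library listed. The -259.3 kb interval, between genes in the Evx2-side desert, stood at 0.668, 0.643, 0.718 and 0 in Control posterior and 0, 0.413, 0 and 0.253 in Control anterior, which overlapped. It stood at 0.627, 0.511 and 0.488 in Etv2OE posterior and 0, 0.0374 and 0 in Etv2OE anterior, which did not. The limma adjusted p values in equal-length lists were 0.198 in controls and 0.131 in Etv2OE.

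For ETV2 overexpression itself, no HoxD interval of 70 differed between Etv2OE and control in anterior limb (limma, 3 at an unadjusted p under 0.05), where 0.0602% of all intervals were higher and 0.0351% lower. The Hoxd1 start, at 0.521, 0.601 and 0.592 in Control anterior replicates 2, 3 and 4, was not listed in Control anterior replicate 1 or in any of the 3 Etv2OE anterior libraries. The difference in equal-length score was -0.275 (SE 0.101, limma adjusted p = 0.691). In posterior limb it was listed in 4 of 4 controls and in 1 of 3 Etv2OE embryos (embryo 7). The change in the posterior-to-anterior difference from control to Etv2OE passed the threshold at no HoxD interval (limma, 3 at an unadjusted p under 0.05; 0.0351% and 0.0318% of all intervals). At +5.7 kb this change was 0.234 with a limma adjusted p of 0.226. These contrasts share their control libraries.

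Hindlimb and forelimb EYFP+ cells, sorted from the same 3 pools, differed at no HoxD interval of 75 (limma, 3 at an unadjusted p under 0.05), where 0.0307% of all intervals were higher in hindlimb and 0.0175% lower. The count was also 0 without the 2 libraries of replicate 3, which stood apart. FL EYFP replicate 3 listed 102 HoxD summits and HL EYFP replicate 3 listed 79, against 29 and 53 and 38 and 50 in replicates 1 and 2 of the 2 groups. The largest of the 3 differences was at +470.2 kb, between genes on the Mtx2 side. It stood at 0.575, 0.572 and 0.865 in HL EYFP and was not listed in FL EYFP. The adjoining +470.0 kb interval was listed in FL EYFP replicates 2 (0.202) and 3 (0.445) and in no HL EYFP library. The difference in score was 0.600 (SE 0.122, limma adjusted p = 0.253). With -640.6 kb, at 0.394, 0.344 and 0.402, it was one of 2 intervals of 155 listed in every HL EYFP and no FL EYFP library, against 0.471% of all intervals. The -367.8 kb interval was the 1 with the opposite pattern (0.0147, 0.121 and 0.403 in FL EYFP), against 1.81%. The interval next to -640.6 kb, at -640.4 kb, was listed in FL EYFP replicate 3 (0.196), so these patterns depend on how summits fall into 200-bp intervals, while -367.8 kb had no adjoining interval listed in either group.

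The +470.2 kb interval also moved in opposite ways in the other experiment. In Control embryos the posterior part was higher in 4 of 4 (by 0.155 to 0.536 in relative rank) and in Etv2OE embryos lower in 3 of 3 (by 0.0824 to 0.335). The adjoining +470.0 kb interval was listed in Control anterior replicates 1 (0.150) and 4 (0.325) and Etv2OE anterior replicate 10 (0.405), and in no posterior library of either group. The change in score was -0.374 (SE 0.103) with an unadjusted p of 0.0036 and a limma adjusted p of 0.635, so it did not pass.

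HL EYFP cells were next set against CKO hindlimb at E10.5. The labels give the CKO libraries as posterior hindlimb, and the EYFP sort was not applied to them in the study's description, so cell selection and genotype cannot be told apart. Of 59 HoxD intervals 1 was lower in HL EYFP and none was higher, against 2.73% lower and 1.22% higher of all intervals. It was +94.9 kb, in the Hoxd1 exon, at 0.724 and 0.501 in CKO and not listed in HL EYFP. The difference was -0.527 (SE 0.0834, limma adjusted p = 0.0489). The 3 HL EYFP libraries did list the adjoining +94.6 kb interval, at 0.142, 0.570 and 0.530, and in 500-bp intervals the difference was -0.312 with a limma adjusted p of 0.341. Pairing by replicate number gave a limma adjusted p of 0.233. The CKO labels give no pool or embryo number to pair by, and 0 of all 35004 intervals passed under that pairing. Leaving out HL EYFP replicate 1, 2 or 3 gave limma adjusted p values of 0.110, 0.112 and 0.0797 at +94.9 kb. In whole lists +94.9 kb was at -0.613 with a limma adjusted p of 0.0489. The Hoxd10 start followed, with scores of 0.602 ± 0.0147 (SD, n = 2) in CKO and 0.0760 ± 0.132 (n = 3) in HL EYFP (difference -0.526, SE 0.0924, limma adjusted p = 0.225). Of 131 HoxD intervals in whole lists, 4 were listed in all HL EYFP and no CKO libraries (4.16% of all intervals) and 6 had the opposite pattern (3.66%).

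Whole lists gave 4 of 81 HoxD intervals in this comparison, against 1.67% of all intervals higher and 1.67% lower. The 3 lower in HL EYFP were +94.9, -690.7 (-0.518, limma adjusted p = 0.0471) and -347.4 kb (-0.479, limma adjusted p = 0.0472). HL EYFP libraries listed a nearby interval in each case, which for the last was -347.2 kb in replicates 2 and 3 (0.708 and 0.610). The -690.7 kb interval was listed in both CKO libraries (0.587 and 0.448) and in no HL EYFP library, and -690.2 kb in all 3 HL EYFP libraries (0.220, 0.465 and 0.655) and in no CKO library. The -690.0 kb interval next to it was listed in CKO replicate 2 (0.583) and, at the same values as -690.2 kb, in HL EYFP replicates 1 and 2. The equal-length score at -690.7 kb differed by -0.402 (limma adjusted p = 0.0502). The 1 higher was +824.0 kb. It stood at 0.565, 0.507 and 0.635 in HL EYFP and was not listed in CKO, with a difference of 0.375 in equal-length lists (limma adjusted p = 0.206) and 0.569 in whole lists (limma adjusted p = 0.0387).

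Loss of Etv2 was also examined at E10.25, where the wild-type lists held 43566 and 34051 summits and the CKO lists 15626 to 42742. In whole lists the cluster held 22 and 18 summits in WT and 29, 6, 25, 10 and 23 in CKO, which overlapped. Among the 15000 highest-ranked summits of each list, WT held 0 and 0 cluster summits and CKO held 11, 5, 4, 6 and 5, without overlap. Over the whole HoxD stretch WT held 5 and 7 and CKO 25, 14, 14, 23 and 21. The HoxA, HoxB and HoxC clusters together moved the same way, with 0 and 1 in WT and 25, 13, 9, 15 and 15 in CKO, so the difference is not particular to HoxD. The share of those 15000 summits that lay within 1000 bp of a gene start was 67.2% and 67.3% in WT and 59.9% to 68.8% in CKO.

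No single HoxD interval of 37 passed the threshold in that comparison (limma, 5 at an unadjusted p under 0.05), where 0.342% of all intervals were higher in CKO and 1.7% lower. The nearest was -287.2 kb with its neighbour -287.4 kb. The -287.2 kb interval was at 0.851, 0.398, 0.858, 0.731 and 0.929 in CKO and at 0 and 0.603 in WT in whole lists, where -287.4 kb had the same values in CKO and 0.571 and 0.603 in WT. Its equal-length scores were 0.630 ± 0.174 (SD, n = 5) and 0.0490 ± 0.0693 (n = 2), a difference of 0.581 (SE 0.125, limma adjusted p = 0.0891). The Hoxd1 start was the nearest among gene starts. It was at 0.740, 0.508, 0.787, 0.651 and 0.645 in CKO and at 0.430 and 0.403 in WT in whole lists, without overlap, and its equal-length score was 0.428 ± 0.0975 (SD, n = 5) against 0 (n = 2), with a difference of 0.428 (SE 0.0748) and a limma adjusted p of 0.0650.

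Sites listed in all CKO and no WT library at E10.25 numbered 1 of 119 HoxD intervals (0.173% of all intervals), and those with the opposite pattern 4 (3.88%). The 1 was +157.7 kb and 1 of the 4 was +157.9 kb, both by the Mtx2 start, so the summit there lay in adjoining intervals in the 2 genotypes. In whole lists +157.9 kb was the 1 of 89 HoxD intervals past the threshold and was lower in CKO, against 3.83% lower and 0.14% higher of all intervals. The Mtx2 start itself did not pass. The other 3 were +332.2, -401.6 and +847.7 kb, at 0.156 and 0.427, 0.275 and 0.162, and 0.229 and 0.122 in WT. In CKO E10.25 replicate 3 the adjoining +332.0 kb (0.200) and +847.9 kb (0.0806) intervals were listed.

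At the level of gene starts, none of the HoxD genes that could be tested (4 in the control and Etv2OE experiment, 6 in hindlimb against forelimb, 4 in HL EYFP against CKO and 6 at E10.25) passed the threshold in any of the 8 comparisons. Few starts passed anywhere. Over all genes 0.152% of starts were higher and 0.691% lower in CKO at E10.25, 0.00759% were lower in posterior limb of controls and 0.0152% in posterior limb of Etv2OE embryos, and in the other comparisons the count was 0 (limma, with 396 to 1055 starts at an unadjusted p under 0.05). Of the flanking genes Atf2, Atp5g3, Lnpk and Mtx2 and the HoxA genes that could be tested, none passed either.

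The gene starts most like the mean of Hoxd9 to Hoxd13 over the 32 libraries were sought among 14707 genes outside the stretch. They were Fam43a (Spearman rho 0.917), Cep57l1 (0.898), Usp44 (0.859), Zfp36l2 (0.848) and 5730596B20Rik (0.841). The same mean followed the number of cluster summits per library (rho 0.938), and the points share their library and its list length, so these values are descriptions.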

How the data were processed

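ATAC-seq had been run on 32 limb bud libraries. Per the labels and the study's methods, the authors aligned paired reads to mm10 with Bowtie2 2.2.4, kept unique reads, removed duplicates, shifted read ends for the transposase and called peaks with MACS2 in each library (its settings: not given in the sources used here). Values as deposited are -log10 q-values at summits (all at a q of 0.05 or below). They carry no depth, so they served only as ranks, and their number and length limit precision.

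The HoxD genes, lists and intervals were chosen with earlier results of these data known. Summits were gathered into 200-bp intervals around the highest-ranked ones. Every list of an experiment was cut to 1 length, a multiple of 5000 set by its shortest list (30000, 30000, 25000 and 15000). Rank scores of all intervals or gene starts listed in at least 2 libraries were tested with limma 3.58.1 (eBayes, two-sided, Benjamini-Hochberg over all tested, threshold 0.05; R 4.3.3), after the code was tested on simulated data. The 4 anterior and posterior groups shared 1 fit. Replicates are labelled as separate samples; the controls and Etv2OE samples carry embryo numbers, the EYFP samples pool numbers. Same-numbered EYFP libraries, which share a pool number, deviated together (r 0.184 to 0.421, other pairs -0.248 to 0.0717). The highest r was that of replicate 3, and the cause was not tested. Libraries of the same embryo deviated together less (r 8.6e-05 to 0.0386, other pairs -0.0272 to 0.0226), but come from the same embryo by their labels. Intervals named were those past the threshold, the 5 highest ranked in each section, and those listed in every library of one group and none of the other; others are said to be chosen later. Alternatives were list length, whole lists, a q of 0.01, the listing minimum, reach, 500-bp intervals, the replicate block, the groups in the fit and each library left out; leaving out both libraries of EYFP replicate 3 was chosen after seeing the data. Letters A and P in the labels of the overexpression experiment were read as anterior and posterior. Gene models and sequence came from GRCm38.p6 with GENCODE M21. Chromosome M was left out. Analyses ran in Python 3.11.15 with pandas 2.3.3.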

Additional observations from a re-analysis of the deposited data

Results flagged for a closer look

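A library was marked when it lay far from the other libraries of its group, by the gap to its nearest neighbour as a share of the group's range. Of 55 sets of values examined, 6 were marked, and chance marks about 1 in 20. CKO E10.25 replicate 2, the library with 15626 summits, was low at +157.7 kb by the Mtx2 start (relative rank 0.00819, nearest other 0.532) and at +771.5 and +771.7 kb (0.220 at each, nearest 0.810), where the 2 intervals share a summit. Control anterior replicate 3 was low in its number of Mtx2-side summits (16, nearest 22) and at -715.4 kb (0.530, nearest 0.719). Control anterior replicate 2 was high at +332.2 kb (0.847, nearest 0.544).

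The +470.2 kb interval was marked because every control embryo was higher in its posterior part and every Etv2OE embryo was lower there. The mean posterior-to-anterior difference in relative rank was lower in Etv2OE by 0.545 (value -0.545), and the limma test of this change in equal-length lists, given in the report, did not pass. The adjoining +470.0 kb interval was listed in 3 of the 7 anterior libraries.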

How the results depend on the processing

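The number of HoxD intervals past the threshold was small and moved with the processing. In posterior against anterior control limb it was 1. It was 4 with whole lists and with a q of 0.01, and 0 with the 10000 highest-ranked summits, lists cut to 0.5 of that length, intervals listed in at least 1 library, a reach of 100 bp, the replicate block and only the 2 groups compared. In Etv2OE posterior against anterior limb it was 2, and 0 with 10000 summits, 0.5 of the length, the 100-bp reach and the replicate block. With only the 2 groups compared it was again 2, but these were -259.5 and -259.3 kb. In Etv2OE against control posterior limb it was 1, and 0 with 10000 summits, 0.5 of the length, whole lists, a q of 0.01, the 100-bp reach and only the 2 groups compared. In HL EYFP against CKO it was 1, and 4 with whole lists, 2 with a q of 0.01, 3 with intervals listed in at least 1 library, and 0 with the 100-bp reach and the replicate block. The count was also 1 with 10000 summits, 0.5 of the length, 500-bp intervals and without HL EYFP replicate 3, but the interval was not +94.9 kb in any of these. At E10.25 it was 0, and 1 with whole lists and a q of 0.01 (+157.9 kb, lower in CKO) and 1 with 500-bp intervals (+94.6 kb, higher in CKO). The cause of these changes was not tested. With each library left out, counts ran from 0 to 2 in posterior against anterior control limb (2 without Control posterior replicate 4), 1 to 3 in Etv2OE (1 without Etv2OE posterior replicate 7), 0 to 1 in the change between them (1 without the same library), 0 to 1 in Etv2OE against control posterior limb, 0 to 1 in HL EYFP against CKO (0 without HL EYFP replicate 1 or 2 or either CKO library) and 0 to 2 at E10.25 (2 without CKO E10.25 replicate 2), and were 0 throughout in the other 2 comparisons. With 10000 summits, 14 HoxD intervals were tested in the control and Etv2OE experiment, where 91 of 18219 passed in controls and 77 in Etv2OE. Under the replicate block no HoxD interval passed in any comparison it could be fitted for. Over all intervals the block left 320 of 59754 in controls, 155 in Etv2OE and 4 in the change between them. It left 0 in hindlimb against forelimb, HL EYFP against CKO and at E10.25. For HL EYFP against CKO and at E10.25 it paired replicate numbers that the labels tie to no shared pool or embryo. The groups of the Etv2OE against control contrasts share no embryo number, so no block was possible there. No called interval that was followed through the alternatives changed direction, and the tests of gene starts gave 0 under every alternative. Intervals by a start did pass in some settings, such as +53.8 kb by a Hoxd4 start in whole lists. The order of group means in cluster summits did change between whole and equal-length lists, for WT and CKO at E10.25 and for Control and Etv2OE posterior limb.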
